A study of Mus musculus with 4 samples.

Results

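Cadherins, protocadherins and catenins were examined in the RNA-Seq comparison of Lgr5+ and Lgr6+ progenitors from the neonatal mouse cochlea. The members were taken by gene symbol. Every numbered cadherin gene, cadherin-related gene (*Cdhr*), protocadherin gene (*Pcdh*) and alpha-, beta- or delta-catenin gene in the deposited table was included, except *Cdh5*, *Cdh23* and *Pcdh15*. This gave 101 of the 23997 listed genes, of which 25 are cadherins or cadherin-related genes, 6 are catenins, 11 are protocadherins outside the clustered locus and 59 belong to the clustered protocadherins on chromosome 18.

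Lgr5+ progenitors were EGFP+ cells sorted from Lgr5-EGFP-IRES-CreERT2 mice and Lgr6+ progenitors were EGFP+ cells sorted from Lgr6-EGFP-IRES-CreERT2 mice, all labelled as strain C57BL/6. Per the methods, both sorts were made from cochleae at P3 without treatment. Neither group is a wild type control, and each population is defined by the reporter allele that its mice carry. The paper describes Lgr6+ cells as some of the inner pillar cells and as part of the wider Lgr5+ population. The groups are therefore not separate cell types. The labels list 2 libraries per population, 4 in all, and the methods state that extracted RNA was divided into 3 fractions per population, so such replicates share 1 extraction. The deposited table holds 1 combined FPKM value (fragments per kilobase of transcript and per fixed number of mapped fragments) per gene and population. The spread between replicates is therefore not known, no difference below was tested, and each one compares a pair of combined values.

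Classical cadherins are calcium-dependent adhesion receptors of adherens junctions. Their extracellular repeats bind cadherins of the neighbouring cell, while the cytoplasmic tail binds beta-catenin and p120-catenin, and alpha-catenin couples this complex to actin. Beta-catenin is also the transcriptional effector of canonical Wnt signaling, the pathway of which *Lgr5* and *Lgr6* are targets. In the cochlear epithelium, E-cadherin and N-cadherin are known to mark the lateral and the medial side of the organ of Corti, respectively. Protocadherins share the extracellular repeats but lack the catenin-binding tail of classical cadherins, and the clustered ones are best known for the identity of single neurons.

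Over the whole table, the summed FPKM in Lgr6+ cells was 83.3% of that in Lgr5+ cells, and 9439 genes were listed at 0 in Lgr5+ cells against 8215 in Lgr6+ cells. A gene was kept when its FPKM was at least 1 in at least 1 population, which held for 13436 genes. The log2 change is log2(FPKM + 1) in Lgr6+ cells minus that in Lgr5+ cells, and negative values therefore mark genes higher in Lgr5+ cells, and the added 1 understates the change of low genes. Its median over all kept genes was 0.03. A kept gene was called higher in a population when it was at least 1.5-fold apart on this scale. The FPKM of *Lgr5* was 9.65 in Lgr5+ and 25.0 in Lgr6+ cells, that of *Lgr6* was 2.06 and 2.90, and that of *Sox2*, a supporting cell gene, was 140 and 54.8.

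Of the 101 members, 41 were kept and 60 were below an FPKM of 1 in both populations. The kept share was 40.6%, against 55.99% of all listed genes. FPKM was listed at 0 in both populations for 25 members, in Lgr5+ cells for 48 and in Lgr6+ cells for 34. The latter pair are 47.5% and 33.7% of the members, beside 39.3% and 34.2% of all listed genes. The expressed members were few. An FPKM of at least 10 was reached by 11 members in Lgr5+ cells and by 8 in Lgr6+ cells, and all 8 of the latter were among the former. The order of the 4 highest members was the same in the populations, namely *Ctnnb1*, *Cdh1*, *Cdh2* and *Ctnna1*. Lower in the order, *Cdh11* and *Cdh3* stood 8th and 12th in Lgr5+ cells, whereas in Lgr6+ cells *Ctnnd1* stood 5th and *Pcdh9* 9th. Summed over all members, the FPKM was 617 in Lgr5+ and 483 in Lgr6+ cells, a ratio of 0.782, which is near that of the whole table.

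**Figure D1:**
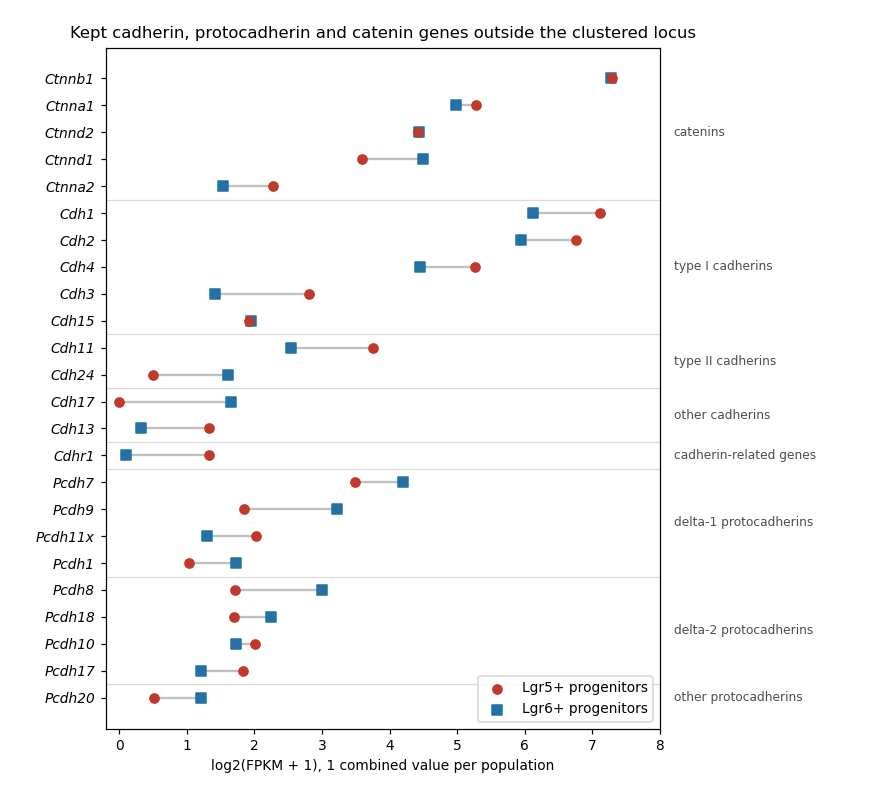
Log2(FPKM + 1) of the 24 kept members outside the clustered locus in Lgr5+ cells (red circles) and Lgr6+ cells (blue squares), 1 combined value each, grouped by family. The type I cadherins except *Cdh15* lie further right in Lgr5+ cells, the points of *Ctnnb1* and *Ctnnd2* overlap, and *Pcdh7*, *Pcdh8* and *Pcdh9* lie further right in Lgr6+ cells.

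The type I classical cadherins carried the largest difference in level. *Cdh1*, which encodes E-cadherin of epithelia, lies on chromosome 8 from 106603368 to 106670246 and had an FPKM of 138 in Lgr5+ and 68.7 in Lgr6+ cells, a ratio of 2.01 and a log2 change of -0.995. *Cdh2*, which encodes N-cadherin, lies on chromosome 18 from 16588877 to 16809049 and had an FPKM of 107 and 60.5, a ratio of 1.77. Its log2 change was -0.81. The E-cadherin and N-cadherin genes were thus both lower in Lgr6+ cells, and the ratio of *Cdh1* to *Cdh2* was 1.29 in Lgr5+ and 1.13 in Lgr6+ cells.

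*Cdh4*, the gene of R-cadherin, was at 37.5 FPKM in Lgr5+ and 20.9 in Lgr6+ cells, a log2 change of -0.81, and it lies on chromosome 2 from 179442478 to 179899375. *Cdh3*, the gene of P-cadherin, on chromosome 8 from 106510852 to 106556911, had 5.99 and 1.67. Its log2 change of -1.39 was the lowest among members outside the clustered locus when 1 was added to the FPKM, whereas with 0.1 added those of *Cdhr1* (-3.21) and *Cdh13* (-2.22) were below that of *Cdh3* (-1.78). The fifth gene of the subgroup, *Cdh15*, which encodes the M-cadherin of myogenic cells, had 2.79 and 2.88 and a log2 change of 0.03. Of the 5 type I genes, 4 were therefore called higher in Lgr5+ cells and none higher in Lgr6+ cells, where 23.3% and 28.5% of all kept genes were called. All 5 reached an FPKM of 1 in both populations, and of all such genes 22.5% and 21.4% were called. The median log2 change of the 5 was -0.81 beside 0.03 over all kept genes. The summed type I FPKM was 291 and 155, of which *Cdh1*, *Cdh2* and *Cdh4* made up 96.99% and 97.1%.

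Of the 12 type II cadherins, 2 (16.7%) were kept, beside 55.99% of all listed genes. *Cdh11*, a cadherin of mesenchymal and bone-forming cells, on chromosome 8 from 102632995 to 102785111, was at 12.5 FPKM in Lgr5+ and 4.82 in Lgr6+ cells, a log2 change of -1.21. It made up 89.7% of the summed type II FPKM in Lgr5+ cells and 54.8% in Lgr6+ cells. *Cdh24*, on chromosome 14, had 0.411 and 2.05, a log2 change of 1.11, and was kept only through its Lgr6+ value. The other 10 type II genes stayed under an FPKM of 1, among them *Cdh6* with 0.881 in Lgr5+ and listed at 0 in Lgr6+ cells, *Cdh10* with 0.141 and 0.870, and *Cdh22* listed at 0 in Lgr5+ cells and with 0.745 in Lgr6+ cells. *Cdh7*, *Cdh8* and *Cdh9* were listed at 0 in both populations, and *Cdh12*, *Cdh18*, *Cdh19* and *Cdh20* were listed at 0 in Lgr5+ cells and lay between 0.0341 and 0.147 in Lgr6+ cells. In Lgr5+ cells 8 (66.7%) of the 12 genes were listed at 0, and in Lgr6+ cells 4 (33.3%), beside 39.3% and 34.2% of all listed genes.

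Among the 4 numbered cadherins outside the type I and type II subgroups, *Cdh13* had an FPKM of 1.52 in Lgr5+ and 0.248 in Lgr6+ cells. Its product, T-cadherin, is held in the membrane by a lipid anchor. *Cdh17*, the liver-intestine cadherin gene on chromosome 4, was listed at 0 in Lgr5+ cells and had 2.14 in Lgr6+ cells. *Cdh16* and *Cdh26* were listed at 0 in both. Of the 4 cadherin-related genes, only *Cdhr1*, known from photoreceptors, was kept, with 1.51 in Lgr5+ and 0.0738 in Lgr6+ cells. *Cdhr3* had 0 and 0.0487, and *Cdhr2* and *Cdhr5*, cadherin-related genes of the intestinal brush border, were listed at 0 in both. Each of the 3 kept genes of these subgroups was below an FPKM of 1 in the other population, so each was kept only through the population in which it was higher.

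The catenins, which bind the classical cadherin tail directly or through beta-catenin, were closer to level as a group than the type I cadherins. *Ctnnb1*, the beta-catenin gene on chromosome 9 from 120933400 to 120960507, had the highest FPKM of all members, with 155 in Lgr5+ and 154 in Lgr6+ cells and a log2 change of -0.01. *Ctnna1*, the epithelial alpha-catenin gene on chromosome 18, had 37.7 and 30.7, a log2 change of -0.29. *Ctnnd2*, which encodes the neural delta-catenin, had 20.4 and 20.6, a log2 change of 0.01. These 3 genes were less than 1.5-fold apart.

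*Ctnnd1*, the gene of p120-catenin, which binds the cadherin tail near the membrane and holds cadherins at the cell surface, had an FPKM of 11.0 in Lgr5+ and 21.6 in Lgr6+ cells. Its log2 change of 0.91 was the only one of a catenin past 1.5-fold toward Lgr6+ cells, and the deposited interval runs on chromosome 2 from 84600781 to 84650740. *Ctnna2*, the neural alpha-catenin gene, had 3.85 and 1.89, a log2 change of -0.75, and *Ctnna3* was listed at 0 in both populations. The 5 kept catenins all reached an FPKM of 1 in both populations, and 1 was called higher in each population. Of all such genes 22.5% were called higher in Lgr5+ and 21.4% higher in Lgr6+ cells. The median log2 change of the 5 was -0.01. The summed FPKM of the 6 genes was 228 in both populations, of which *Ctnnb1* made up 68.0% in Lgr5+ and 67.3% in Lgr6+ cells.

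Within a population, ratios between genes do not depend on a factor that scales 1 population to the other, although quantile normalization alters them. The summed type I cadherins stood at 1.88 times *Ctnnb1* in Lgr5+ cells and at 1.01 times *Ctnnb1* in Lgr6+ cells. The ratio to *Ctnnb1* in Lgr5+ and in Lgr6+ cells was 0.889 and 0.447 for *Cdh1*, 0.690 and 0.394 for *Cdh2*, and 0.242 and 0.136 for *Cdh4*. For *Cdh1* over *Ctnnd1* it was 12.5 in Lgr5+ and 3.18 in Lgr6+ cells, and for *Ctnnb1* over *Ctnna1* it was 4.11 and 4.999. The ratio of the p120-catenin gene to the neural delta-catenin gene, *Ctnnd1* over *Ctnnd2*, was 0.541 and 1.05. These are ratios of FPKM, an RNA level per transcript length, and not of protein.

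The 250 bases upstream of the start that abuts the deposited interval are shown for *Ctnnb1*, the highest member, which was level in the populations, and for *Ctnnd1*, the catenin higher in Lgr6+ cells. They are from RefSeq (GRCm38.p6), run 5′ to 3′ on the strand of the gene, and lie at chr9:120933150-120933399 on the plus strand and at chr2:84650741-84650990 on the minus strand. Capitals mark matches to a GC box.
*Ctnnb1*: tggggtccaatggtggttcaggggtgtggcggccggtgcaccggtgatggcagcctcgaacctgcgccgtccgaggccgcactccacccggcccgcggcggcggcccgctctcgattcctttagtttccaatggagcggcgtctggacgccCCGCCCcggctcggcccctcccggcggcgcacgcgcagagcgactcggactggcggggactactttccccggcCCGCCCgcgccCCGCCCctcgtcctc
*Ctnnd1*: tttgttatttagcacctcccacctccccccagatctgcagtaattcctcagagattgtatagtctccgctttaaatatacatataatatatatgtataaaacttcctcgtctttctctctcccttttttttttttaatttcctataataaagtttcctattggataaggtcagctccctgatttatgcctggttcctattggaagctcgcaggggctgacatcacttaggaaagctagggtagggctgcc

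The letters searched, on both strands, were GGGCGG for the GC box, CANNTG for the E-box and CTTTGA for the core of a Tcf/Lef site. These letters occurred in 32.7%, 66.2% and 13.8% of the upstream stretches of 32851 RefSeq starts. The *Ctnnb1* stretch held 3 GC boxes and 74.8% G and C, whereas the *Ctnnd1* stretch held none and 40.0%, beside a median of 52.4% over all starts. Neither held the E-box or the Tcf/Lef letters. RefSeq gives *Ctnnd1* a further start outside the deposited interval, which is not shown. Promoter sequences were matched for 29 of the 101 members.

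Among protocadherins outside the clustered locus, higher values in Lgr6+ cells were more frequent than higher values in Lgr5+ cells. None of the 11 genes was listed at 0 in either population, 9 were kept, 2 were called higher in Lgr5+ cells and 5 higher in Lgr6+ cells, beside 23.3% and 28.5% of all kept genes, and the summed FPKM was 27.8 and 46.2. Of the 8 that reached 1 in both populations, 2 and 4 were called, beside 22.5% and 21.4% of all such genes. *Pcdh7*, a delta-1 protocadherin on chromosome 5, was the highest of them, with 10.2 in Lgr5+ and 17.3 in Lgr6+ cells and a log2 change of 0.71. *Pcdh9*, of the same subgroup, had 2.61 and 8.33, a log2 change of 1.37. *Pcdh1*, which is expressed in epithelia, had 1.04 and 2.32, a log2 change of 0.70. The fourth delta-1 gene, *Pcdh11x*, went the other way, with 3.08 and 1.45 and a log2 change of -0.74.

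The delta-2 protocadherins, whose tails can bind regulators of actin, were divided. *Pcdh8* had an FPKM of 2.27 in Lgr5+ and 7.01 in Lgr6+ cells, a log2 change of 1.29. *Pcdh17* had 2.58 and 1.31, a log2 change of -0.63. *Pcdh10* had 3.01 and 2.30 and *Pcdh18* had 2.24 and 3.76, and both were under 1.5-fold, *Pcdh18* narrowly with a log2 change of 0.56. *Pcdh19* stayed below an FPKM of 1, with 0.288 and 0.564. Outside these subgroups, *Pcdh20* had 0.424 and 1.30 and was kept only through its Lgr6+ value. *Pcdh12*, known from endothelial cells, had 0.0304 and 0.586 and was not kept.

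*Pcdh8*, *Pcdh17* and *Pcdh9* lie along chromosome 14, in this order, with *Pcdh20* between the latter pair. Their upstream stretches are shown because they are delta-protocadherins of 1 chromosome with opposite differences, *Pcdh8* and *Pcdh9* higher in Lgr6+ and *Pcdh17* higher in Lgr5+ cells. From RefSeq (GRCm38.p6), they lie at chr14:79771313-79771562 on the minus strand, chr14:84443313-84443562 on the plus strand and chr14:93890670-93890919 on the minus strand, and capitals again mark GC boxes.
*Pcdh8*: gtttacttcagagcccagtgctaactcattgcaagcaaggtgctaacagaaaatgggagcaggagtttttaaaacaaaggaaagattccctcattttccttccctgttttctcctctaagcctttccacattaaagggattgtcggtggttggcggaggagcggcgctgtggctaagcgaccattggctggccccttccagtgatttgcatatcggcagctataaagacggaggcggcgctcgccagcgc
*Pcdh17*: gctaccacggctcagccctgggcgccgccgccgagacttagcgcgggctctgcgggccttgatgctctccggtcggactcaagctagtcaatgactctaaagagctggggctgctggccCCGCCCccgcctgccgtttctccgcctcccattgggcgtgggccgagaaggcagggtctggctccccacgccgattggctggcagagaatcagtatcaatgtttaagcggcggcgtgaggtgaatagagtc
*Pcdh9*: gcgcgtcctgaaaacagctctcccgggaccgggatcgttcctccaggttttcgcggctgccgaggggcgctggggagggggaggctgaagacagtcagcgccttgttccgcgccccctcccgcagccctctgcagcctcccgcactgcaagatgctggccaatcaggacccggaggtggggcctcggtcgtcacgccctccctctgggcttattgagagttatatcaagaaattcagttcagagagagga

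The stretch of *Pcdh17* held 1 GC box and those of *Pcdh8* and *Pcdh9* held none, where 32.7% of the stretches of all starts held 1 or more. The E-box and Tcf/Lef letters were not found in these windows. A relation between the upstream letters and the differences in FPKM was not tested for any gene shown. The content of G and C was 51.2% for *Pcdh8*, 64.8% for *Pcdh17* and 63.6% for *Pcdh9*.

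The 59 clustered protocadherins share 1 deposited interval, on chromosome 18 from 36930285 to 37841872. In this locus each alpha or gamma gene joins its own first exon to constant exons that the other genes of its cluster also use, while the beta genes have no constant exons but resemble each other closely. Reads of shared or similar sequence cannot be assigned to 1 gene with certainty, so the values of single genes are uncertain, and a value of 0 may result from the way reads were divided. Only 18 of the 59 genes were above 0 in both populations, while 8 were above 0 only in Lgr5+ and 16 only in Lgr6+ cells. The share listed at 0 was 55.9% in Lgr5+ and 42.4% in Lgr6+ cells, beside 39.3% and 34.2% of all listed genes. Values of 0 were thus more frequent in Lgr5+ cells over the whole table as well. The minimum FPKM of 1 was reached by 17 genes, and 6 of these were called higher in each population, beside 23.3% and 28.5% of all kept genes. Of the 17, 11 reached 1 in only 1 population and held 5 of the 6 calls in each direction, and of the other 6 genes 1 was called in each direction.

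The gamma cluster held most of the signal. Its 22 genes summed to an FPKM of 38.7 in Lgr5+ and 22.2 in Lgr6+ cells, a ratio of 1.74. *Pcdhgc3*, the gamma gene that many cell types express, had 16.96 and 7.99, a log2 change of -0.999, and made up 43.8% and 35.9% of the cluster's sum. *Pcdhga7* had 10.2 and 6.75, and *Pcdhga5* had 3.79 and 2.64, log2 changes of -0.53 and -0.40 that were under 1.5-fold. Without *Pcdhgc3* and *Pcdhga7* the cluster still summed to 11.6 and 7.51. *Pcdhga10* had 3.15 in Lgr5+ cells and was listed at 0 in Lgr6+ cells, *Pcdhga11* had 2.53 and 0.251, and *Pcdhga12* was listed at 0 in Lgr5+ cells and had 1.13 in Lgr6+ cells. By subfamily, the 12 *Pcdhga* genes summed to 21.2 and 11.3, whereas the 7 *Pcdhgb* genes, none of which reached 1, summed to 0.522 and 2.99. Of the 3 *Pcdhgc* genes only *Pcdhgc3* was above 0.

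The beta cluster was near level as a whole, with a sum of 13.2 in Lgr5+ and 14.8 in Lgr6+ cells over 22 genes, although single genes differed in both directions. *Pcdhb17* had 2.16 and 3.84, *Pcdhb7* had 2.45 and 2.599, and *Pcdhb20* had 1.36 and 1.21. *Pcdhb21* and *Pcdhb15* had 2.01 and 1.39 in Lgr5+ cells and were listed at 0 in Lgr6+ cells, and *Pcdhb19* had 1.22 and 0.197. Among the beta genes called higher in Lgr6+ cells, *Pcdhb16* had 0.342 and 1.24, *Pcdhb13* had 0.178 and 1.20, and *Pcdhb6* was listed at 0 in Lgr5+ cells and had 1.12 in Lgr6+ cells. The alpha cluster was the lowest, with a sum of 1.02 and 4.996 over 15 genes. *Pcdhac1*, the only alpha gene kept, was listed at 0 in Lgr5+ cells and had 2.77 in Lgr6+ cells. *Pcdha5* and *Pcdha2* were listed at 0 in Lgr5+ cells and had 0.648 and 0.588 in Lgr6+ cells.

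**Figure D2:**
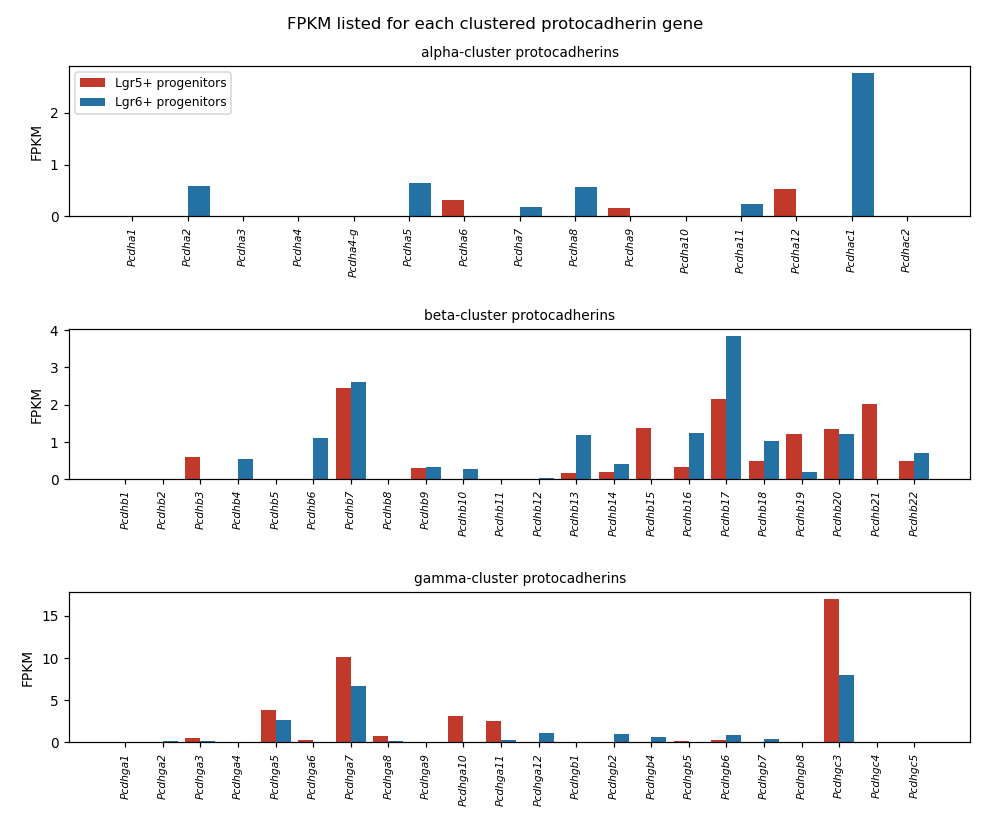
FPKM listed for each clustered protocadherin gene in Lgr5+ cells (red bars) and Lgr6+ cells (blue bars), with a panel and its own axis for each of the alpha, beta and gamma clusters. Bars of *Pcdhgc3* and *Pcdhga7* dominate the gamma panel, and many genes show a bar in only 1 population.

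Counted over all 41 kept members, 16 (39.0%) were called higher in Lgr5+ cells, against 23.3% of all kept genes, and 14 (34.1%) were called higher in Lgr6+ cells, against 28.5% of all kept genes. The remaining 11 were less than 1.5-fold apart, and the median log2 change was -0.09. These counts include 16 members that were below 1 in 1 population, of which 7 were called higher in Lgr5+ and 8 higher in Lgr6+ cells and which had little room to be called otherwise. Of the 25 members that reached an FPKM of 1 in both, 9 (36.0%) were called higher in Lgr5+ cells, against 22.5% of all such genes. In this set 6 (24%) were called higher in Lgr6+ cells, against 21.4% of all such genes. With 1 added to the FPKM, the 5 lowest log2 changes were those of *Pcdhga10* (-2.05), *Pcdhb21* (-1.59), *Pcdhga11* (-1.50), *Cdh3* (-1.39) and *Pcdhb15* (-1.26), and the 5 highest were those of *Pcdhac1* (1.91), *Cdh17* (1.65), *Pcdh9* (1.37), *Pcdh8* (1.29) and *Cdh24* (1.11).

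**Figure D3:**
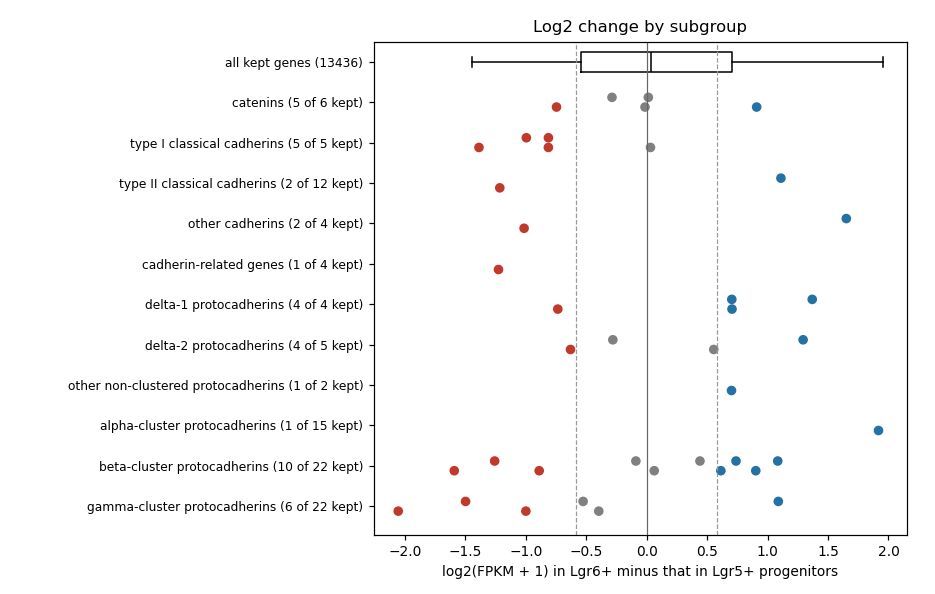
Log2 change of each kept member by subgroup, with red points for genes called higher in Lgr5+ cells, blue for those called higher in Lgr6+ cells and grey for those under 1.5-fold (dashed lines). The box at the top spans the quartiles of all 13436 kept genes with its median line, and its whiskers run from percentile 5 to percentile 95. Of the type I cadherins 4 of 5 lie left of the dashed line, and of the delta-1 protocadherins 3 of 4 lie right of it.

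By position, 4 of the 5 kept members on chromosome 8 were called higher in Lgr5+ cells and none higher in Lgr6+ cells, while of all 716 kept genes of that chromosome 21.4% were called higher in Lgr5+ and 28.1% higher in Lgr6+ cells. *Cdh3* and *Cdh1* are neighbours there, 46456 bases apart with 1 other listed gene between them, and *Cdh11* and *Cdh13* lie elsewhere on the chromosome. On chromosome 14 all 6 members were kept, 2 of them called higher in Lgr5+ and 4 higher in Lgr6+ cells, against 22.1% and 31.4% of the 484 kept genes there. *Cdh13* on chromosome 8 and *Cdh24*, *Cdhr1* and *Pcdh20* on chromosome 14 were kept only through the population in which they were higher. Their calls therefore had little room to be otherwise. On chromosome 15, of 6 members only *Ctnnd2* was kept, and the 5 type II cadherins there stayed under an FPKM of 1. These groups were looked at after the values were known.

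Genes that work with cadherins at the adherens junction were taken as a list, which covers 32 genes of the table, such as plakoglobin, vinculin, afadin, the nectins and the actin regulators of the junction. All 32 reached an FPKM of 1 in both populations. Of these, 7 (21.9%) were called higher in Lgr5+ and 4 (12.5%) higher in Lgr6+ cells, beside 22.5% and 21.4% of all such genes (23.3% and 28.5% of all kept genes). The median log2 change was -0.10. The lowest were *Arvcf*, a p120-related catenin gene, with an FPKM of 33.3 and 11.3 and a log2 change of -1.48, *Pvrl3* (nectin-3), with 29.8 and 11.8 and -1.27, and *Pvrl4* (nectin-4), with 5.99 and 1.93 and -1.25. The highest were *Vcl*, which encodes vinculin, with 5.78 and 18.2 and a log2 change of 1.502, *Actn1*, an alpha-actinin gene, with 3.81 and 8.49 and 0.98, and *Lima1*, with 23.3 and 45.5 and 0.93. *Jup*, the plakoglobin gene, had 12.6 and 16.3, and *Mllt4*, the afadin gene, had 51.8 and 74.4, both under 1.5-fold. The p120 relatives were thus not alike, since *Ctnnd1* was higher in Lgr6+ cells while *Arvcf* was lower there, as was *Pkp4* with 123 and 66.0.

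Of 25 further genes of the cadherin superfamily and of desmosomes, 12 were kept, with 5 called higher in Lgr5+ and 2 higher in Lgr6+ cells, beside 23.3% and 28.5% of all kept genes, and a median log2 change of -0.31. Those 2 were *Celsr3*, with 0.724 in Lgr5+ and 3.38 in Lgr6+ cells, and *Pkp1*, with 0.151 and 1.80, each kept only through its Lgr6+ value. Among those that reached an FPKM of 1 in both, the lowest were *Pkp3*, a desmosomal plakophilin gene, with 28.6 in Lgr5+ and 7.60 in Lgr6+ cells, *Celsr1*, a seven-pass cadherin gene of planar cell polarity, with 27.2 and 11.4, and *Dsg2*, a desmosomal cadherin gene, with 3.61 and 1.42. *Fat1*, with 6.53 and 10.03, and *Clstn3*, with 11.0 and 13.1, were the only 2 with a log2 change above 0 in that set, and both were under 1.5-fold.

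**Figure D4:**
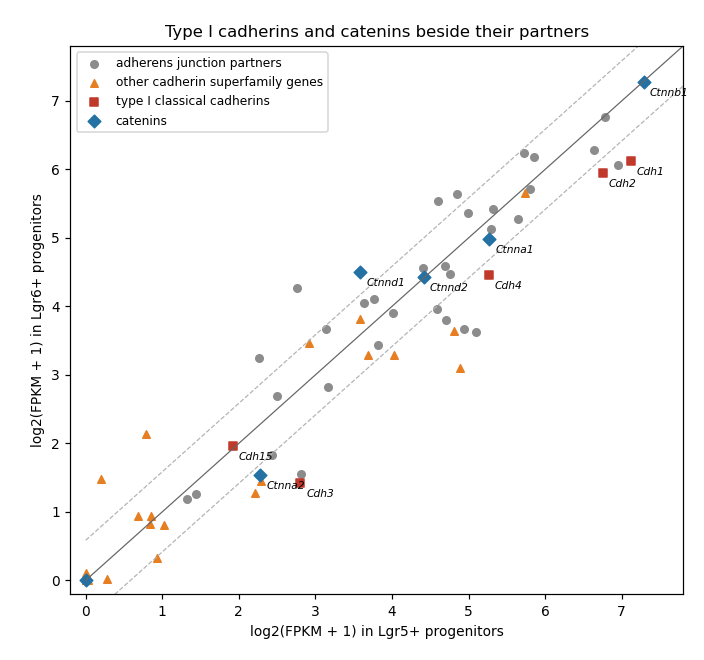
Log2(FPKM + 1) in Lgr6+ against Lgr5+ cells for the type I cadherins (red squares), the catenins (blue diamonds), the adherens junction partners (grey circles) and further cadherin superfamily genes (orange triangles). The solid line marks equal values and the dashed lines 1.5-fold. *Cdh1*, *Cdh2*, *Cdh4* and *Cdh3* lie below the lower dashed line, *Ctnnb1* and *Ctnnd2* on the solid line and *Ctnnd1* above the upper dashed line.

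Marker genes of some other cell types also differed between the populations, and in sorted bulk RNA fewer cells of a type and less RNA per cell cannot be told apart. The counts of markers stand beside 28.5% of all kept genes called higher in Lgr6+ and 23.3% called higher in Lgr5+ cells. Among all genes that reached an FPKM of 1 in both populations, these shares were 21.4% and 22.5%. Markers kept through only 1 population had little room to be called otherwise. Of 10 endothelial genes, all of them kept, 9 were called higher in Lgr6+ and 1 higher in Lgr5+ cells. Only 1 population carried 5 of the 10 past the filter, with 4 of these called higher in Lgr6+ and 1 higher in Lgr5+ cells. The summed FPKM of the 10 was 34.5 in Lgr5+ and 179 in Lgr6+ cells. VE-cadherin, *Cdh5*, had 1.24 and 10.1 and *Kdr* was listed at 0 in Lgr5+ cells, beside the values of *Pcdh12* given above. Of 10 macrophage genes, 8 were kept and all 8 were called higher in Lgr6+ cells, 7 of them kept only through their Lgr6+ value. The 10 genes had a sum of 3.88 and 264, and 6 were listed at 0 in Lgr5+ cells, among them *C1qb*, *C1qc* and *Tyrobp*. Of 10 mesenchyme and fibrocyte genes, 1 was called higher in Lgr5+ and 5 higher in Lgr6+ cells. Their sum was 335 and 618, most of the difference being that of *Otos*, with 5.60 and 248, whereas *Lum* had 179 and 101.

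Of 10 listed hair cell genes, 8 were called higher in Lgr6+ cells and none higher in Lgr5+ cells, with *Myo7a* at 19.3 and 47.0 and a sum of 722 and 968. Of 12 supporting cell genes, 4 were called higher in Lgr5+ and 1 higher in Lgr6+ cells, with a median log2 change of -0.46. Their sum of 1743 and 2039 went the other way through *Fabp7*, with 446 and 1370. Neuronal genes summed to 126 and 146, with 2 of 10 called higher in Lgr5+ and 3 higher in Lgr6+ cells. Pericyte genes summed to 8.63 and 10.3, with 2 of 6 kept and 1 of these called, higher in Lgr6+ cells. Melanocyte genes summed to 1.68 and 3.97, with 2 of 6 kept and 1 called in each direction. Each of these called pericyte and melanocyte genes was below an FPKM of 1 in the other population. The part of these cells in the values of cadherins, protocadherins and catenins was not tested.

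Scaling Lgr6+ values to the same summed FPKM raised the median log2 change of all kept genes by 0.25. Under all 4 other ways of scaling or adding a pseudocount, *Cdh1*, *Cdh2*, *Cdh3*, *Cdh4* and *Cdh11* stayed lower in Lgr6+ cells and *Ctnnd1*, *Pcdh7*, *Pcdh8* and *Pcdh9* stayed higher. The log2 change ran from -1.004 to -0.734 for *Cdh1*, from -0.82 to -0.55 for *Cdh2* and from 0.89 to 1.16 for *Ctnnd1*, and *Cdh2* and *Cdh4* were no longer past 1.5-fold at the same summed FPKM. There *Ctnna2*, *Pcdh11x* and *Pcdh17* also came under 1.5-fold, and *Pcdh18* passed it with 0.77. After quantile normalization *Pcdh1* and *Pcdh20* came under 1.5-fold, with 0.35 and 0.23, while *Pcdhga7* and *Pcdhga5* passed it with -0.63 and -0.64. *Pcdh18* passed it with a pseudocount of 0.1 as well, with 0.72. *Ctnnb1* ran from -0.02 to 0.25 and *Cdh15* from -0.23 to 0.23, so their signs depended on the scaling, and neither passed 1.5-fold in any setting.

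**Figure D5:**
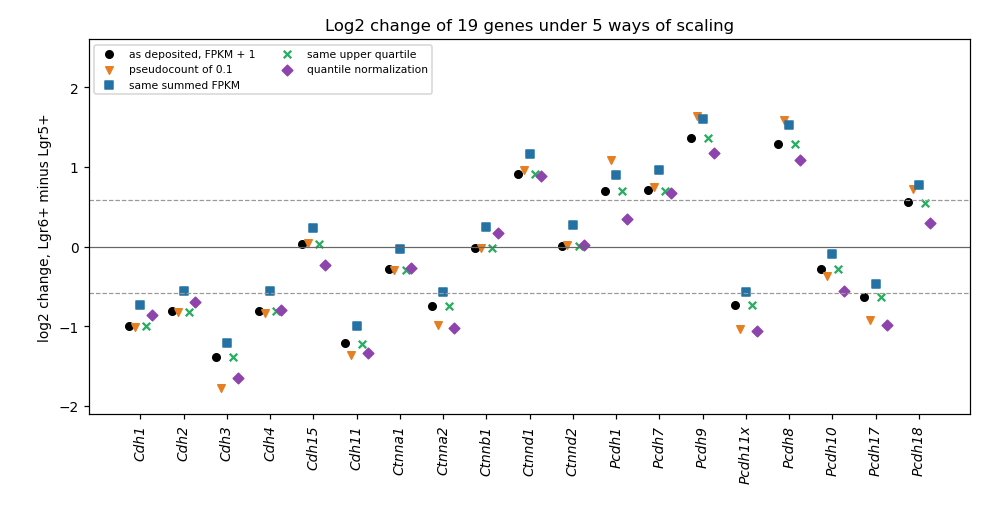
Log2 change of 19 members under 5 settings, namely the deposited FPKM with 1 added, a pseudocount of 0.1, scaling to the same summed FPKM, scaling to the same upper quartile and quantile normalization. Dashed lines mark 1.5-fold. *Cdh1*, *Cdh3* and *Cdh11* stay below the lower line and *Ctnnd1*, *Pcdh7*, *Pcdh8* and *Pcdh9* above the upper line in every setting shown.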

How the data were processed

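Sorted EGFP+ cells were measured by RNA-Seq after amplification with a low-input kit. The authors trimmed reads with Trimmomatic and aligned them with TopHat, and Cufflinks gave the FPKM values. The deposited FPKM of each population combines its replicates. Program versions are not given in the sources used here. The labels name mm10 as the genome and the paper mm9. Of 22497 symbols matched to RefSeq on GRCm38.p6, 98.8% of the deposited intervals overlapped the gene, so positions are read as GRCm38, with 1 added to each start. The columns of the authors' own comparison (a log2 ratio, a p-value and a q-value) were not used.

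A test across samples had been planned for a table with 1 value per sample. The table holds 1 value per population, so the difference of log2(FPKM + 1) was calculated without a test, with a minimum FPKM of 1 and a threshold of 1.5-fold. The paper gives a range of read numbers and of mapped shares over its samples, but not the depth of each library. No counting interval is given. The members, lists and alternatives were chosen with earlier results of these data known. Genes named were all catenins and type I cadherins, all other kept members outside the clustered locus, the 3 highest genes of each cluster by mean FPKM, the 5 largest changes in each direction, and the 3 largest changes per direction of each list of further genes, among those with an FPKM of 1 or more in both. Other genes, and the upstream sequences, were chosen after their values were seen. The values of 1 marker list are not reported here. The tools were numpy 2.4.6, pandas 2.3.3 and matplotlib 3.10.9 under Python 3.11.15. The arithmetic of the calls was checked on a copy of the Lgr5+ values in which genes of high FPKM were raised or lowered 2-fold. That copy held no noise and changed no low genes, so the check does not bear on how reliable the calls are.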

Additional observations from a re-analysis of the deposited data

How the results depend on the processing

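No paired analysis was possible because the table holds 1 combined value per population, and for the same reason no replicate could be left out. The 16 members called higher in Lgr5+ and the 14 called higher in Lgr6+ cells became 8 and 7 at 2-fold, 10 and 8 without the clustered protocadherins, 9 and 6 where both values had to reach 1 FPKM, and 6 and 4 where either had to reach 5 FPKM. The shares of all genes called were 11.7% and 18.2% at 2-fold, 22.5% and 21.4% with both values at 1 FPKM, and 24.1% in each direction at 5 FPKM. Fewer members entered under the last 3. Without a filter the counts were 20 and 23 (13.5% and 17.4% of all genes), and after quantile normalization 20 and 7. With a pseudocount of 0.1 they were 16 and 16 (25.6% and 31.3% of all kept genes), so the counts were equal. At the same summed FPKM they were 11 and 18 of 44 kept members. Calls over all kept genes moved toward Lgr6+ cells there as well. The median log2 change of the kept members, -0.09, became 0.0 without a filter, 0.24 at the same summed FPKM and -0.64 after quantile normalization. Over all kept genes the median was 0.28 at the same summed FPKM and -0.03 after quantile normalization. At the same summed FPKM 16.3% of all kept genes were called higher in Lgr5+ and 37.6% higher in Lgr6+ cells, and after quantile normalization 26.5% and 24.7%. Of 27 single members compared under 4 settings, 25 kept their sign in each and 17 kept their call. The absence of counts and of values per library limits every difference.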
